A study of Mus musculus with 8 samples.

Results

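The loss of the histone demethylase gene Jmjd1a in mouse embryonic stem (ES) cells was described by setting the 2 arrays labelled Jmjd1a-KO against the 2 labelled WT, 4 of the 8 Affymetrix arrays of the series. ES cells are cultured cells of the early embryo that can give rise to all of its tissues. The WT cells carried the genotype Jmjd1a+/+; Jmjd1b+/+ and the Jmjd1a-KO cells Jmjd1adelta/delta; Jmjd1b+/+. The other 4 arrays held Jmjd1b-KO cells (Jmjd1a+/+; Jmjd1bdelta/delta) and double-KO cells (Jmjd1adelta/delta; Jmjd1bdelta/delta), 2 of each, and helped to estimate the spread between replicates. To make the double-KO cells, conditional alleles of Jmjd1b were built into cells already deficient in Jmjd1a and deleted by MerCreMer, a Cre recombinase switched on by 4-hydroxytamoxifen (OHT). All samples were grown with leukaemia inhibitory factor and knockout serum replacement, and the protocol of all 8 names 800 nM OHT, so that any effect of the drug was shared by the groups if all of them received it. The labels describe the WT cells as derived from WT mice and the Jmjd1a-KO cells as a deficient line. The clone behind each Jmjd1a-KO array is not stated in the labels, and differences between lines and the effect of the deletion cannot be told apart.

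JMJD1A, also called KDM3A, removes monomethyl and dimethyl groups from H3K9, a lysine of histone H3 whose methylation marks silent chromatin, and JMJD1B (KDM3B) is a close relative. In mice JMJD1A is known for its part in spermatogenesis, in metabolism and in the switching on of Sry, and in ES cells for acting at some pluripotency genes. Demethylation of this residue is linked to DNA methylation, since methyltransferases and readers of the mark can bring the DNA methylation machinery to a gene.

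Expression was deposited as log2 values, on which a difference of 1 is a 2-fold difference. Of 45101 probe sets, 33599 (74.5%) held the same value to within 0.01 on all 8 arrays and were set aside as flat, and the labels do not say what made them so. The remaining probe sets gave 7181 genes, each read by its informative probe set with the highest mean. The 18S ribosomal control probe sets were higher on both Jmjd1a-KO arrays than on both WT arrays (5' set at 13.08 and 13.08 against 12.61 and 11.62), whereas those of Actb and Gapdh spanned at most 0.154 over the 4 arrays. The part of this difference in the results was not tested.

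The ES cell label was borne out by its markers: all 10 listed (among them Pou5f1, Nanog, Sox2 and Dppa5a) were measured, and their mean level was 11.64 on both WT arrays and 11.79 and 11.94 on the Jmjd1a-KO arrays. Of 15 markers of feeder fibroblasts, 9 were measured, with a mean of 9.02 and 9.09 in WT and 8.42 and 8.32 in Jmjd1a-KO. Another 5, among them Lum, Dcn and Pdgfra, were flat at levels from 6.09 to 6.80. None of the 5 mesoderm markers was measured.

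The 2 Jmjd1a-KO arrays differed from each other more than the 2 WT arrays did. Over the 7181 genes the difference between replicates had an SD of 0.34 in Jmjd1a-KO and 0.15 in WT, and 105 genes differed by more than 1 between the Jmjd1a-KO arrays against 12 between the WT arrays. The widest splits lay in Y-linked genes. Eif2s3y, which encodes a subunit of a translation initiation factor, stood at 7.62 and 7.66 in WT and at 11.72 and 3.19 in Jmjd1a-KO. Uty, a relative of a histone H3 lysine 27 demethylase, read 7.94 and 7.90 in WT and 8.97 and 3.96 in Jmjd1a-KO. On both genes the WT arrays lay between the Jmjd1a-KO arrays, the first being far above the second. The same split was seen in the double-KO arrays (Eif2s3y at 12.17 and 3.73), and Xist was flat at 7.04 on all arrays. After the Y-linked genes, the immediate early gene Ier3 (11.34 and 8.14), Baiap2l1 (11.79 and 8.88), the clock and hypoxia-responsive repressor Bhlhe40 (10.75 and 8.09) and the hormone gene Adm (9.40 and 6.83) separated the Jmjd1a-KO arrays most. Of the 105 genes, 8 passed the test below. The cause of the split was not tested.

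**Figure D1:**
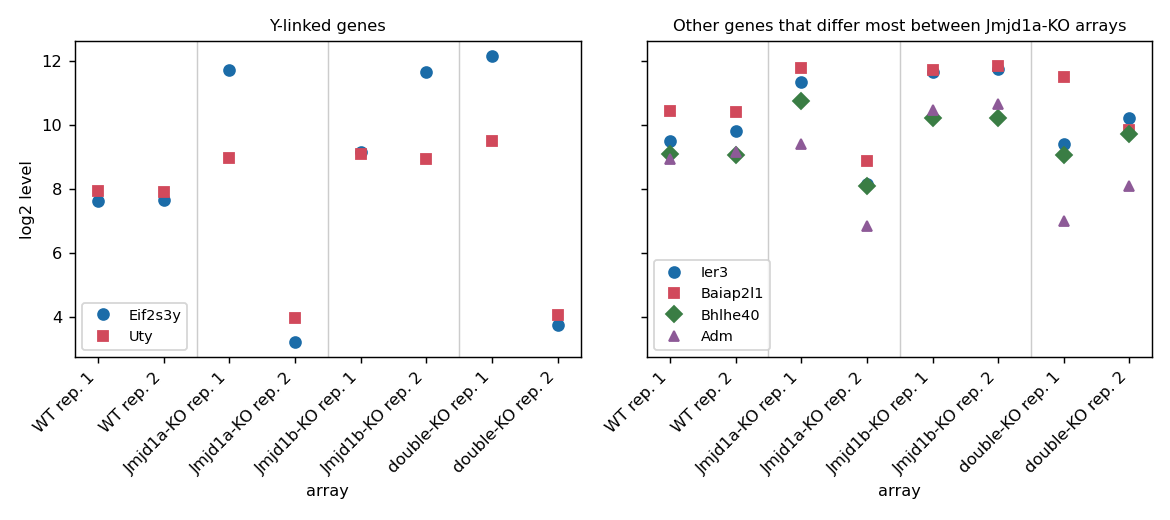
Log2 level (y axis) on each of the 8 arrays (x axis) of the Y-linked genes Eif2s3y and Uty (left) and of the 4 other genes that differed most between the Jmjd1a-KO arrays (right). Each point is 1 array. The first Jmjd1a-KO array is high and the second low for all of them, with Eif2s3y at 11.72 and 3.19.

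Kdm3a, the symbol under which Jmjd1a is listed, measured 12.83 and 12.73 on the WT arrays and 5.08 and 4.87 on the Jmjd1a-KO arrays. The groups were far apart, and the level fell by 7.81 ± 0.10 (standard error; limma, adjusted p = 2.39e-06), as the genotype labels state. Kdm3b read 9.91 and 9.96 in WT and 9.95 and 9.81 in Jmjd1a-KO, a change of -0.06 ± 0.19 (adjusted p = 0.85, limma), with overlapping arrays. Kdm3a was the only one of the 7 measured H3K9 demethylase genes that passed the test, while 7 others, including Kdm4a and Phf8, were flat. Among 11 measured H3K9 methyltransferase and reader genes, Trim28, the corepressor that recruits SETDB1, fell by 0.34 ± 0.06 and Uhrf1, a reader that brings in DNMT1, fell by 0.26 ± 0.06, while Cdyl, a reader of methylated H3K9, rose by 0.54 ± 0.13. The called share of this list was 27.3%, beside 18.1% of all genes. Each of these calls was lost when only the WT and Jmjd1a-KO arrays were fitted.

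Across all genes, 1301 of 7181 passed an adjusted p of 0.05 (18.1%), of which 732 rose (10.2% of genes tested) and 569 fell (7.92%). Changes were mostly small: the median was 0.57 among genes that rose and -0.54 among those that fell. A change of at least 1 was reached by 93 genes that rose and 113 that fell, and one of at least 2 by 7 and 18. None of the 1301 had overlapping arrays, but 65.1% of all genes tested did not overlap either. The count rested on how the spread was estimated. With only the 4 arrays compared, 321 genes passed, 303 of them among the 1301, and without 1 array the count ran from 139 (second WT array left out) to 2335 (second Jmjd1a-KO array left out), with all 1301 keeping their sign each time. Centring each array moved the split from 732 higher and 569 lower to 627 higher and 751 lower.

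The fallen genes were unevenly spread over the chromosomes. On chromosome 19, 58 of 253 tested genes fell and 7 rose, and on chromosome 1, 87 of 428 fell and 18 rose, against 569 falls in 7181 genes overall. The median change was -0.17 on chromosome 19 and -0.14 on chromosome 1, where it was 0.01 over all genes. Both Jmjd1a-KO arrays showed it, at -0.21 and -0.17 on chromosome 19 and -0.15 and -0.11 on chromosome 1, each against the WT mean. Genes of chromosome 11 (98 rose and 36 fell of 638, median 0.08) and of the X chromosome (46 rose and 12 fell of 264, median 0.10) lay on the other side. The Jmjd1b-KO arrays, which carry intact Jmjd1a, stood at medians of -0.13 on chromosome 19 and -0.18 on chromosome 1 against the same WT arrays. Without the WT arrays, Jmjd1a-KO minus Jmjd1b-KO had medians of -0.03 on chromosome 19 and 0.01 on chromosome 1, and double-KO minus Jmjd1b-KO had medians of -0.02 and 0.07. The source of these shifts was not tested. When both chromosomes were left out, 687 genes rose and 411 fell.

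**Figure D2:**
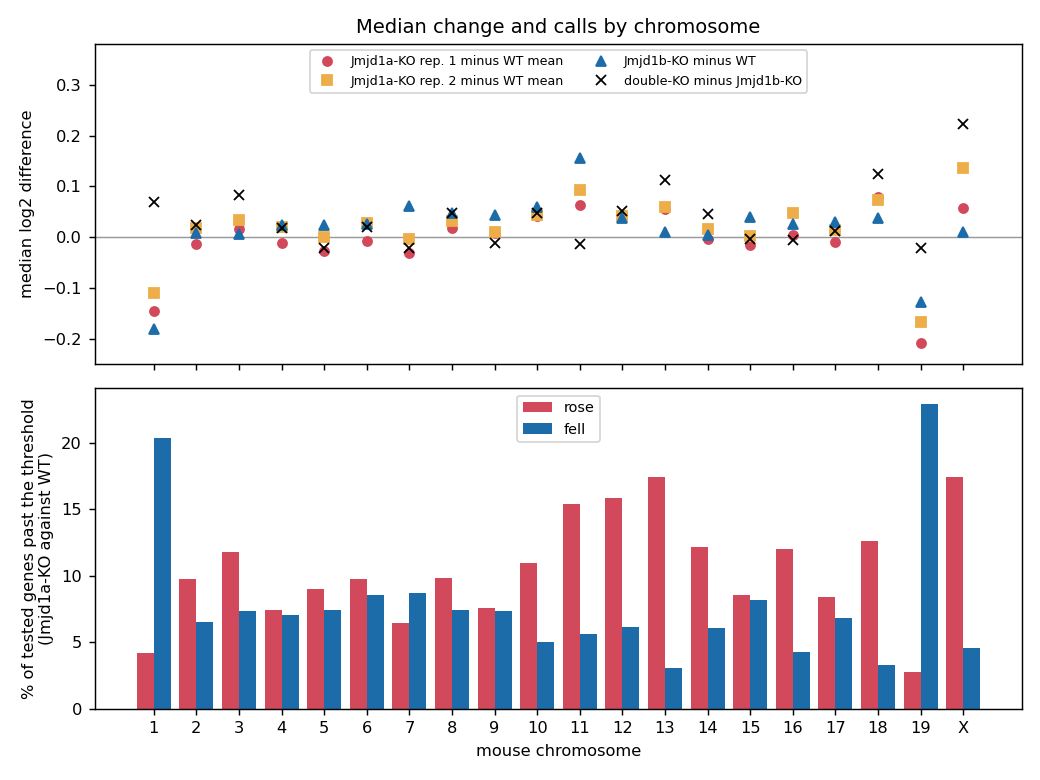
Top, the median log2 difference (y axis) of the tested genes of each mouse chromosome (x axis) for each Jmjd1a-KO array and the Jmjd1b-KO mean against the WT mean, and for double-KO against Jmjd1b-KO. Bottom, the percentage of tested genes that rose (red) or fell (blue) in Jmjd1a-KO against WT. Chromosomes 1 and 19 lie below 0 in all 3 comparisons with WT (-0.17 on chromosome 19 for Jmjd1a-KO) but not on chromosome 1 in double-KO against Jmjd1b-KO (0.07).

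The genes with the widest gap between the groups are taken first, by their place in cell biology, 14 that rose and 14 that fell. Of these 28, 12 had more than 1 informative probe set, all of which moved in the direction of the one used. The size could differ widely between probe sets, from 0.34 to 1.92 in Kitl, 0.04 to 2.38 in Nrk and -6.18 to -0.19 in Meg3. The call held without each array in turn and in all other settings tried for 14 of the 28: Tfap2c, Impact, Diaph2, Kdm3a, Rian, Meg3, Cdkn1c, Gstp1, Plac8, Ak7, Tgfbi, Fam111a, Tdrd12 and Ly6e. Among the other named genes it did so for 11, namely Sohlh2, Peg3, Sgce, Col1a2, Myl9, Oasl2, Epas1, Zmat3, Ccng1, Gstm5 and Nefl. The remaining calls among the 117 named genes past the threshold were lost in at least 1 setting, most often without the second WT array (90 genes), with flat genes included (87) or without the first WT array (80). With only the 4 arrays compared, 9 of the 14 rises and 14 of the 14 falls passed.

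The deepest falls after Kdm3a were in imprinted genes, which are expressed from the maternal or the paternal copy only. Rian, a long noncoding RNA of the Dlk1-Dio3 cluster on chromosome 12, measured 12.21 and 11.19 in WT and 5.15 and 4.83 in Jmjd1a-KO. Its neighbour Meg3, another noncoding RNA made from the maternal copy, measured 11.72 and 10.13 in WT and 6.22 and 5.74 in Jmjd1a-KO. The Jmjd1a-KO values of these noncoding RNAs lay below the lower quartile of all probe sets (6.34 on each of these arrays), and signal over background was not examined, so the size of the falls is uncertain. Rian fell by 6.71 ± 0.37 (adjusted p = 0.00123, limma). Meg3 fell by 4.94 ± 0.50 (adjusted p = 0.00513). Mirg, the miRNA-bearing transcript of the same cluster, fell by 2.49 ± 0.23, to 5.91 and 5.83. In all 3 genes the first WT array was higher than the second.

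Cdkn1c, which encodes the cell cycle inhibitor p57 and is active on the maternal copy, stood at 10.61 and 10.78 in WT and 6.60 and 7.45 in Jmjd1a-KO, and fell by 3.67 ± 0.27 (adjusted p = 0.00247). Phlda2, a growth-restraining gene of the same domain on chromosome 7, fell from 11.64 and 11.80 to 9.34 and 9.89. Kcnq1ot1 is the noncoding RNA of the paternal copy that silences this domain in cis, and it read 7.23 and 6.95 in WT and 9.22 and 8.87 in Jmjd1a-KO. It rose by 1.96 ± 0.29 (adjusted p = 0.0122), with no overlap, and its 4 informative probe sets changed by 1.21 to 1.96. Grb10, a maternally expressed adaptor that restrains growth factor signalling, went from 12.03 and 12.04 to 8.18 and 9.32, and so fell by 3.28 ± 0.40 (adjusted p = 0.00802).

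Among genes active on the paternal copy the values mostly went up. Impact, a regulator of translation, rose from 10.14 and 10.07 to 11.59 and 11.66, a change of 1.52 ± 0.08 (adjusted p = 0.00123), and its second probe set changed by 0.11. The zinc-finger gene Peg3 rose by 1.39 ± 0.10, the Polycomb-related Sfmbt2 by 1.21 ± 0.26 and the sarcoglycan gene Sgce by 1.07 ± 0.10. Igf2, the fetal growth factor, fell by 0.78 ± 0.10. By list, 6 of the 17 measured maternally expressed genes fell and 1 rose (median -0.08), and 6 of the 17 measured paternally expressed genes rose and 1 fell (median 0.62), beside 732 rises, 569 falls and a median of 0.01 over all 7181 genes. In each list 10 of the 17 genes did not pass.

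**Figure D3:**
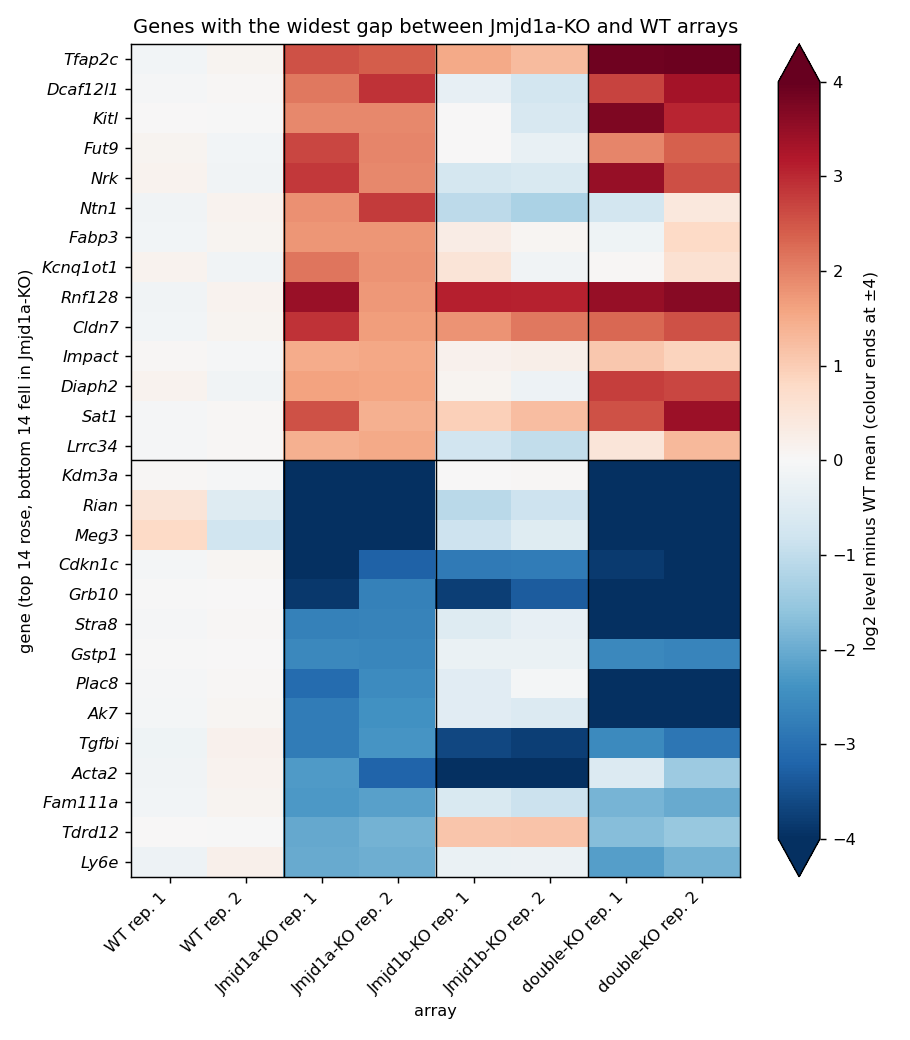
Colour shows the log2 level of each gene (y axis) on each of the 8 arrays (x axis) minus the mean of the WT arrays, from blue (lower) to red (higher), with the scale ending at 4 either way. The top 14 genes rose and the bottom 14 fell in Jmjd1a-KO. Rian and Meg3 are low on the Jmjd1a-KO and double-KO arrays, while Rnf128 and Grb10 differ from WT on the Jmjd1b-KO arrays too.

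Genes of germ cells and meiosis came next. DNA methylation and a Polycomb complex that holds PCGF6 and E2F6 are known to keep many of them silent in ES cells, and the complex is known to read the E-box CACGTG and the E2F6 site TCCCGC. Upstream sequences, the 250 bases before the RefSeq start in GRCm38.p6, are shown for fallen members Hormad1 (chr3:95559427-95559676, plus strand) and Mael (chr1:166238745-166238994, minus strand) and for Sycp3 (chr10:88459337-88459586, plus strand), which holds the same letters but did not pass. Capitals mark matches on either strand.
Hormad1: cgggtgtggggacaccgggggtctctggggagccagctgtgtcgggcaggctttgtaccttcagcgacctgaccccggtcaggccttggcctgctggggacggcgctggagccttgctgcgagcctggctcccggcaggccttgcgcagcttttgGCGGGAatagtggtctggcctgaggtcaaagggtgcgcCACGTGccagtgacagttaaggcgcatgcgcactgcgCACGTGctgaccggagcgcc
Mael: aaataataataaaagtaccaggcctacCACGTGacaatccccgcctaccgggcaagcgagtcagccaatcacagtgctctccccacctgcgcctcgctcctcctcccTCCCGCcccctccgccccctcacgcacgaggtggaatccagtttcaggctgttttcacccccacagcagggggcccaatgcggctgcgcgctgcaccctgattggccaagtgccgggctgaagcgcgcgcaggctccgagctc
Sycp3: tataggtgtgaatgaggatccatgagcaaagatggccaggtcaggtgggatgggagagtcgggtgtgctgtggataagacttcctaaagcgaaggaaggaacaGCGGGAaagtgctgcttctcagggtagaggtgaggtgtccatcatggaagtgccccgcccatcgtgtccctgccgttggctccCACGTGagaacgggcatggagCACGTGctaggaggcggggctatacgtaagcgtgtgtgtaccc
The E-box letters were found in 3 of the 7 fallen germline genes with a promoter window of 250 bases before to 50 after the start, in 7 of the 12 that did not pass and in 12.6% of tested genes. The E2F6 letters were found in 4 of the 7, in 7 of the 12 and in 41.3% of tested genes. A match is a description of the sequence only, and Mael has a further E2F6 match at 12 bases after the start, which is not printed.

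Of 22 measured germline genes 8 fell, 1 rose and 13 did not pass, with a median of -0.21, beside 7.92% of all genes that fell. Without the second WT array 1 fell, and without the first 4 fell. Stra8, the gene that retinoic acid switches on at meiotic entry, stood at 11.34 and 11.45 in WT and 8.68 and 8.71 in Jmjd1a-KO, and fell by 2.70 ± 0.35 (adjusted p = 0.00932). Sohlh2, a transcription factor of early spermatogonia and oocytes, read 9.01 and 9.04 in WT and 7.25 and 7.16 in Jmjd1a-KO, a fall of 1.82 ± 0.06 (adjusted p = 0.000158). Hormad1, a protein of the meiotic chromosome axis, went from 7.70 and 7.77 to 6.22 and 6.44. Each of the 3 genes had groups well apart. Tex19.1, a restrainer of retrotransposons, fell by 1.51 ± 0.19, and Piwil2, a PIWI protein that binds piRNAs, by 1.16 ± 0.14. Tdrd12, a piRNA pathway gene, was among the widest gaps, at 9.43 and 9.40 in WT and 7.36 and 7.53 in Jmjd1a-KO (it fell by 1.97 ± 0.09, adjusted p = 0.001). Kit, the receptor of germ cell precursors, rose by 0.93 ± 0.18, and Kitl, which encodes its ligand, rose from 7.35 and 7.34 to 9.28 and 9.26. The Polycomb list had 2 rises (Suz12 by 0.74 ± 0.14 and Rbbp7 by 0.30 ± 0.07) and 3 falls (Pcgf6 by 0.48 ± 0.07, Kdm2b by 0.47 ± 0.12 and Aebp2 by 0.45 ± 0.08) in 19 measured genes. Its called share was 26.3%, beside 18.1% of all genes. The homeobox gene Rhox5 fell by 1.02 ± 0.16, and Mageb16 of the X chromosome rose by 0.49 ± 0.07.

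Of 12 measured DNA methylation genes 4 fell, 1 rose and 7 did not pass (median -0.21), beside 7.92% of all genes that fell and 10.2% that rose. Dnmt3l, the cofactor of the de novo methyltransferases, read 11.11 and 11.42 in WT and 9.50 and 9.91 in Jmjd1a-KO, and fell by 1.56 ± 0.30 (adjusted p = 0.023). Dnmt3a fell by 1.13 ± 0.28 (adjusted p = 0.0444) and Dnmt3b by 0.69 ± 0.15 (adjusted p = 0.0318). These 3 calls were lost without either WT array, the first Jmjd1a-KO array or either Jmjd1b-KO array. Dppa3, which protects DNA from methylation in the egg and counteracts UHRF1, rose from 10.45 and 10.44 to 11.44 and 11.19, a change of 0.87 ± 0.10 (adjusted p = 0.0071). Dnmt1 was flat.

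Of 14 core pluripotency genes 2 rose and none fell, a called share of 14.3% beside 18.1% of all genes, namely Zfp42 (Rex1), a marker of undifferentiated cells, by 1.01 ± 0.15, and the transcription factor Sox2 by 0.58 ± 0.11. Of 16 naive-state genes, Dppa3 was the 1 that rose (median 0.29). Of 16 genes of the formative and primed epiblast, the next developmental step, 4 fell and none rose (median -0.24). Pou3f1 (Oct6) went from 10.06 and 10.20 to 7.54 and 8.87, a fall of 1.92 ± 0.42 (adjusted p = 0.0307), and the FGF-responsive factor Etv5 fell by 0.91 ± 0.20. The other fallen members of that list were Dnmt3a and Dnmt3b. The second Jmjd1a-KO array lay closer to WT in this list, with a median difference of -0.05 from the WT mean against -0.43 for the first.

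None of the 3 measured genes that are reported as direct JMJD1A targets passed the test. The naive transcription factor Tfcp2l1 read 9.13 and 9.12 in WT and 9.03 and 8.87 in Jmjd1a-KO (-0.18 ± 0.13, adjusted p = 0.363). Acadm, an enzyme of fatty acid oxidation, was at 10.90 and 10.92 in WT and 10.98 and 10.83 in Jmjd1a-KO (-0.01 ± 0.07, adjusted p = 0.944). Zfp57, the keeper of imprints, and the testis genes Sry, Tnp1 and Prm1 were flat.

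Called genes of the early lineages went both ways, and the counts below stand beside 10.2% of all genes that rose and 7.92% that fell. Tfap2c, a transcription factor of trophoblast, germ cells and naive cells, read 8.16 and 8.36 in WT and 10.80 and 10.68 in Jmjd1a-KO, and rose by 2.48 ± 0.11 (adjusted p = 0.001), with 3 probe sets between 1.68 and 2.48. Plac8, named for its placental expression, went from 12.03 and 12.13 to 9.01 and 9.56, and so fell by 2.80 ± 0.21 (adjusted p = 0.00247). With Eomes (a rise of 0.83 ± 0.14) and Fgfr2 (0.42 ± 0.11), 3 of 9 measured trophoblast genes rose, 1 fell and 5 did not pass (median -0.01). In 12 endoderm genes (median 0.28, with 10 positive changes), Lama1 (0.77 ± 0.17) and Amn (0.39 ± 0.08) rose and Sparc fell by 0.71 ± 0.16. In 12 neuroectoderm genes the neurofilament gene Nefl rose by 0.94 ± 0.10 and none fell, a called share of 8.33% beside 18.1% of all genes. Of 6 genes of the 2-cell-like state (called share 16.7%), Usp17la, of a multigene family, rose by 0.26 ± 0.06. It read 5.66 and 5.75 in WT and 5.99 and 5.93 in Jmjd1a-KO, below the lower quartile of all probe sets on each array. Its call was lost with only the WT and Jmjd1a-KO arrays fitted. Of 4 measured Hox genes, Hoxa2 fell by 0.27 ± 0.06, to 6.07 and 6.14, also below that quartile, and another 21 were flat.

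Of 14 measured genes of the smooth muscle type contractile list, 7 fell and 1 rose (Myh9, by 0.35 ± 0.07). In the fibroblast and matrix list 8 of 16 measured genes fell. Over all genes tested, 7.92% fell and 10.2% rose. Acta2 (smooth muscle actin) stood at 11.95 and 12.24 in WT and 9.84 and 8.89 in Jmjd1a-KO, and fell by 2.74 ± 0.40 (adjusted p = 0.0123, limma). Myl9, a light chain of myosin, went from 8.60 and 9.07 to 6.30 and 6.53, a fall of 2.42 ± 0.20 (adjusted p = 0.00368). The actin-binding Tagln fell by 1.75 ± 0.24 and the cardiac actin Actc1 by 1.93 ± 0.23. The median change was -0.35 in the contractile list, where 6 genes did not pass. It was -0.43 in the fibroblast and matrix list, where 8 did not pass and none rose. The fallen matrix genes included Tgfbi, a matrix protein induced by TGF-beta, from 9.62 and 9.99 to 7.02 and 7.46, and the collagen genes Col1a2 and Col1a1, which fell by 1.71 ± 0.16 and 1.13 ± 0.14. As in all genes that passed, the groups did not overlap in any of these. Acta2 lies on chromosome 19, and Col3a1 and Col5a2 (falls of 0.74 ± 0.18 and 1.04 ± 0.24) on chromosome 1. The list overlaps the feeder fibroblast markers, whose mean level was lower in Jmjd1a-KO as given above, and the part of feeder cells in these falls was not tested. In bulk RNA, fewer cells of a type and less RNA per cell cannot be told apart.

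Of 25 measured genes of epithelial junctions and keratins, 8 rose, none fell and 17 did not pass (median 0.46), beside 10.2% of all genes that rose. Cldn7, a claudin of tight junctions, read 8.10 and 8.33 in WT and 11.11 and 9.89 in Jmjd1a-KO, and rose by 2.29 ± 0.38 (adjusted p = 0.0162). The desmosome genes Dsp and Pkp2 rose by 1.34 ± 0.27 and 1.25 ± 0.28, the polarity gene Crb3 by 1.29 ± 0.32 and Cldn4 by 0.99 ± 0.17. The first Jmjd1a-KO array was higher than the second in each of these 5 genes, and both lay above WT. Perp, a desmosomal target of p53, rose from 7.88 and 7.86 to 8.93 and 8.91. It belongs as well to the p53 list, of whose 18 measured genes 7 rose and none fell (median 0.22). Ccng1 (cyclin G1) rose by 0.73 ± 0.07 (adjusted p = 0.00486), Pmaip1 (Noxa), which promotes apoptosis, by 1.04 ± 0.15 and Zmat3 by 0.75 ± 0.09. Pmaip1 was the 1 of 8 measured Bcl2 family genes that passed.

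Of 21 measured interferon response genes, 9 fell and 12 did not pass, beside 7.92% of all genes that fell. Many interferon response genes carry the interferon-stimulated response element, searched here as GAAANNGAAA on both strands. The 250 bases before the RefSeq start in GRCm38.p6 are shown for Gbp2 (chr3:142620413-142620662, plus strand) and Irgm1 (chr11:48871421-48871670, minus strand), which fell, and for B2m (chr2:122147437-122147686, plus strand), which did not pass, with matches in capitals.
Gbp2: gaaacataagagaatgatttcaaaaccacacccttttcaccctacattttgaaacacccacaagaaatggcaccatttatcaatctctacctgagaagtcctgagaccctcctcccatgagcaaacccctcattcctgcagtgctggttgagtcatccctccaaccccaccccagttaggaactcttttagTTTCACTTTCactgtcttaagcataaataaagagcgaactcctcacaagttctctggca
Irgm1: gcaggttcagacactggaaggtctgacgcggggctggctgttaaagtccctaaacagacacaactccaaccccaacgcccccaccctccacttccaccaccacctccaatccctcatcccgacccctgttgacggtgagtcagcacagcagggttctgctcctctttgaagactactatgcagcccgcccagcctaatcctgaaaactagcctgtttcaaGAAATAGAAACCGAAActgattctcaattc
B2m: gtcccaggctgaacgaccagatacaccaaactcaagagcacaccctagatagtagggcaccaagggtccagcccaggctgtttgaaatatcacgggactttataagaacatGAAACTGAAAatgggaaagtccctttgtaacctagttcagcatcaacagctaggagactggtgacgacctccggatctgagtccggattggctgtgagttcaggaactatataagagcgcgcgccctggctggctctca
The first base of the match lay 59 bases before the start in Gbp2, 30 and 24 bases before it in Irgm1, where 2 matches overlap, and 139 bases before it in B2m. Such letters were found in 4 of the 8 fallen interferon genes with a promoter window, in 6 of the 11 that did not pass and in 3.54% of tested genes.

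None of the 21 interferon genes rose, 5 had positive changes, and the median was -0.23. Gbp2, a guanylate-binding GTPase, read 7.40 and 7.69 in WT and 5.55 and 6.06 in Jmjd1a-KO, and fell by 1.74 ± 0.25 (adjusted p = 0.0118). Irgm1, an immunity-related GTPase, went from 8.18 and 8.25 to 5.97 and 6.61, a fall of 1.93 ± 0.35 (adjusted p = 0.0199). Ly6e, a surface protein that interferon induces, went from 10.30 and 10.68 to 8.47 and 8.53, a fall of 1.99 ± 0.15 (adjusted p = 0.00274). As in all genes that passed, the arrays of these 3 did not overlap. Oasl2 fell by 1.14 ± 0.10, Gbp3 by 0.92 ± 0.14 and the immunoproteasome subunit Psmb8 by 0.81 ± 0.08. In Jmjd1a-KO, Gbp2, Gbp3 (5.61 and 5.75), Oasl2 (5.96 and 5.97) and the first array of Irgm1 lay below the lower quartile of all probe sets (6.34). The size of these falls is therefore uncertain. The call of Gbp2 was lost without either WT array, and that of Irgm1 also without the first Jmjd1a-KO array or either Jmjd1b-KO array.

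**Figure D4:**
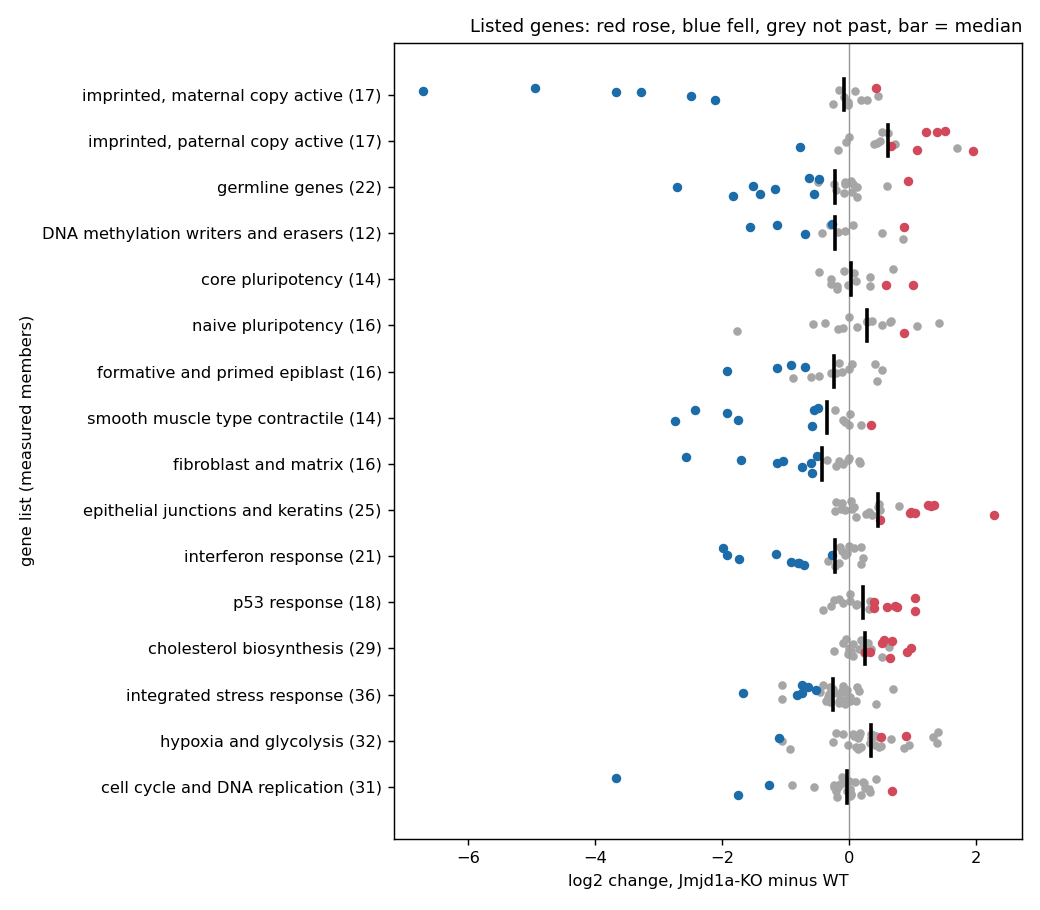
Each point is the log2 change, Jmjd1a-KO minus WT (x axis), of 1 measured gene of a list (y axis, number of measured genes in brackets). Red genes rose and blue genes fell past an adjusted p of 0.05, grey genes did not pass, and the bar is the median. Imprinted genes spread furthest, while all called interferon genes (9 of 21) lie below 0 and all called epithelial genes (8 of 25) above it.

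Of 29 measured genes of cholesterol and fatty acid synthesis, 8 rose, none fell and 21 did not pass (median 0.25), beside 10.2% of all genes that rose. The sterol demethylase Cyp51 went from 9.37 and 9.32 to 10.42 and 10.22, a rise of 0.97 ± 0.13 (adjusted p = 0.0106), and Insig1, the sterol sensor that restrains SREBP, rose by 0.92 ± 0.18. Scd1, a fatty acid desaturase, rose by 0.69 ± 0.14 by its used probe set and changed by -0.13 by the other. Elovl6, an elongase, rose by 0.65 ± 0.17 (adjusted p = 0.0495), a call kept in 3 of 12 other settings and in 2 of 8 fits without 1 array. Hmgcs1, which makes the precursor of mevalonate, rose by 0.56 ± 0.10 and Dhcr7, the last enzyme of cholesterol synthesis, by 0.52 ± 0.11. Of 36 measured integrated stress response genes, 6 fell and none rose (median -0.25), and the called share of 16.7% lay near the 18.1% of all genes. The arginine transporter Slc7a1 fell by 1.66 ± 0.27, the mitochondrial enzyme Pck2 by 0.82 ± 0.19, Psat1 and Psph of serine synthesis by 0.73 ± 0.17 and 0.52 ± 0.13, and Trib3 and Atf3, regulators induced by ATF4, by 0.74 ± 0.17 and 0.65 ± 0.09.

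Of the 6 glutathione transferases in the detoxification list, Gstp1 and Gstm5 fell and the other 4 did not pass. Gstp1 measured 13.11 and 13.13 in WT and 10.53 and 10.51 in Jmjd1a-KO, and fell by 2.60 ± 0.05 (adjusted p = 1.80e-05). Gstm5 went from 10.52 and 10.64 to 9.08 and 8.84, a fall of 1.62 ± 0.09 (adjusted p = 0.00123). Both Jmjd1a-KO arrays lay far below WT. Hmox1 (heme oxygenase) fell by 0.53 ± 0.12, while Nqo1 and Txnrd1 rose by 1.44 ± 0.37 and 0.26 ± 0.06. These 3 calls were lost when only the WT and Jmjd1a-KO arrays were fitted. In all, 3 of 23 measured genes of this list fell and 2 rose, a called share of 21.7% beside 18.1% of all genes. Gstp1 lies on chromosome 19, and whether its probe set also reads the near-identical Gstp2 was not tested.

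The hypoxia and glycolysis list shows how the 2 Jmjd1a-KO arrays can part. Its median difference from the WT mean was 0.60 on the first Jmjd1a-KO array and -0.02 on the second, and 3 of 32 measured genes passed (9.38%, beside 18.1% of all genes). The glucose transporter Slc2a3 rose by 0.90 ± 0.16, P4ha2, a collagen prolyl hydroxylase, rose by 0.51 ± 0.09, and Epas1 (HIF-2 alpha) fell from 10.72 and 10.63 to 9.56 and 9.58.

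Cell cycle genes gave 3 falls and 1 rise in 31 measured genes (median -0.03), a called share of 12.9% beside 18.1% of all genes. Cyclin D2 (Ccnd2) went from 9.15 and 9.25 to 7.17 and 7.72, a fall of 1.75 ± 0.20 (adjusted p = 0.00717), and all 6 of its informative probe sets fell. Cyclin D1 (Ccnd1) went from 11.03 and 11.11 to 9.33 and 10.31 and fell by 1.25 ± 0.30. Without the first Jmjd1a-KO array it fell by 0.76, and the call was lost without either WT, Jmjd1b-KO or double-KO array. Cdkn1c fell as given above. Cdkn2a, the locus of p16 and ARF, rose by 0.68 ± 0.11. Among 25 genes of BMP, Nodal and TGF-beta signalling the called share was 12%. The activin subunit gene Inhbb fell from 7.68 and 7.84 to 5.99 and 6.54 and Tgfb2 fell by 0.47 ± 0.06, both on chromosome 1. The BMP effector Smad1 rose by 0.53 ± 0.08. Among 22 genes of FGF, Wnt and LIF signalling it was 18.2%. Spry1, a brake on FGF signalling, rose by 0.54 ± 0.10 and the Wnt effector Lef1 fell by 0.53 ± 0.12, beside Etv5 and Fgfr2.

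The other genes with the widest gaps belong to no single group. Fut9, the fucosyltransferase that makes the stage-specific antigen SSEA-1, went from 7.13 and 6.94 to 9.72 and 8.98. Dcaf12l1, of the X chromosome, went from 7.65 and 7.72 to 9.80 and 10.58, and Nrk, an X-linked kinase gene, from 8.16 and 7.89 to 10.86 and 9.95. The X-linked Diaph2, an actin-nucleating formin, rose by 1.59 ± 0.13, Sat1, an X-linked enzyme of polyamine breakdown, by 1.99 ± 0.42 and Rnf128, an X-linked ubiquitin ligase, by 2.60 ± 0.51. The guidance factor Ntn1 rose by 2.30 ± 0.45, Fabp3, a fatty acid-binding protein, from 11.13 and 11.34 to 12.99 and 12.99, and Lrrc34 by 1.47 ± 0.25. Ak7, an adenylate kinase of cilia, fell from 10.30 and 10.44 to 7.56 and 7.94. Fam111a, a protease gene on chromosome 19, fell from 9.63 and 9.85 to 7.46 and 7.58. That the Jmjd1a-KO arrays of these genes lay on one side of the WT arrays follows from how the genes were chosen.

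Cells without and with Jmjd1a were also compared where Jmjd1b was absent, as double-KO against Jmjd1b-KO. The group means come from arrays other than those of WT and Jmjd1a-KO. The spread, however, was estimated from all 8 arrays for both comparisons, so the calls in the 2 are not independent. A rise or fall in that comparison is a difference between the groups, since the double-KO cells came from deleting Jmjd1b in Jmjd1a-deficient cells. There 3721 of 7181 genes passed (51.8%, with 28.3% rising and 23.5% falling), and 2196 to 4224 when 1 array was left out, the fewest without the second Jmjd1b-KO array. Of the 732 genes that rose with Jmjd1a loss alone, 471 (64.3%) rose and 51 fell, and of the 569 that fell, 339 (59.6%) fell and 81 rose. These were 23.2% of the rises and 20.1% of the falls with Jmjd1b absent. Across the 7181 genes the changes had a Pearson r of 0.43, given as a description, since genes are not independent. Both Jmjd1a-deficient groups may carry the same difference between lines, and the Y-linked split was seen in both. Such a difference would recur in this overlap and cannot be told apart from the deletion. On chromosomes 1 and 19, 63 of the 145 genes that fell also fell there (43.4%), and on the other chromosomes 276 of 424 (65.1%).

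The size of the change differed between the settings for 480 of the 1301 genes (36.9%), by the interaction term of the same fit. Since the 1301 were chosen on a change that enters this term, the share is a description, and 26.4% of all genes tested passed (1894 genes, and 629 to 2562 when 1 array was left out, the fewest without the second Jmjd1b-KO array). Kdm3a fell by 8.13 in cells without Jmjd1b. Rian fell by 5.56 there and Meg3 fell by 4.34, and the interaction did not pass for them (adjusted p = 0.15 and 0.56). Tfap2c rose by 2.50, beside 2.48 in cells with Jmjd1b. Plac8 fell by 5.79, further than with Jmjd1a loss alone (interaction -2.99, adjusted p = 0.0036, limma). Dnmt3a fell by 3.30 and Dnmt3l fell by 3.97, and both interactions passed (adjusted p = 0.015 and 0.013). Rhox5 fell by 5.35 (interaction -4.33, adjusted p = 0.0012).

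Other genes went the opposite way. Gbp2 was 3.99 higher in double-KO than in Jmjd1b-KO, against its fall of 1.74 in Jmjd1a-KO against WT (interaction 5.73, adjusted p = 0.002, limma). It read 11.03 and 10.44 in double-KO, 6.68 and 6.80 in Jmjd1b-KO and 5.55 and 6.06 in Jmjd1a-KO. Irgm1, Gbp3, Psmb8 and Oasl2 fell with Jmjd1b present and rose by 1.76, 1.95, 1.29 and 1.14 with it absent, each with an interaction past the threshold, whereas Ly6e fell in both settings (by 1.79 with Jmjd1b absent). Acta2 and Tagln were 3.75 and 3.01 higher in double-KO than in Jmjd1b-KO (interactions of 6.49 and 4.76, adjusted p = 0.003 and 0.0023, limma). Both were low in Jmjd1b-KO. Acta2 read 7.50 and 7.19 there, 11.95 and 12.24 in WT and 11.54 and 10.65 in double-KO. Tagln read 7.20 and 6.99 in Jmjd1b-KO, 10.26 and 10.57 in WT and 10.46 and 9.75 in double-KO. Kcnq1ot1 changed by 0.14 in cells without Jmjd1b (adjusted p = 0.72), against a rise of 1.96 with it, and the difference passed (interaction -1.82, adjusted p = 0.025).

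**Figure D5:**
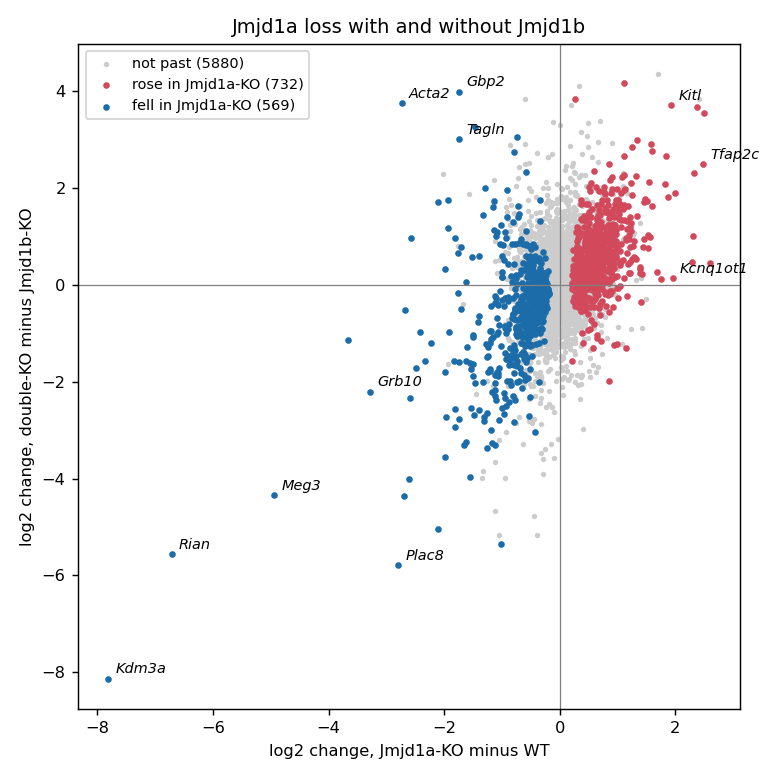
Log2 difference between cells without and with Jmjd1a, where Jmjd1b is present (x axis, Jmjd1a-KO minus WT) or absent (y axis, double-KO minus Jmjd1b-KO), for 7181 genes. Red genes rose (732) and blue genes fell (569) past the threshold in Jmjd1a-KO. Kdm3a, Rian and Meg3 fell in both settings, while Gbp2, Acta2 and Tagln lie at upper left.

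Jmjd1a-KO cells were also set directly against Jmjd1b-KO cells, where 1978 genes passed (27.5%), and 599 to 2240 when 1 array was left out, the fewest without the second Jmjd1b-KO array. Of the genes that rose against WT, 365 of 732 were higher than in Jmjd1b-KO as well, and of those that fell, 324 of 569 were lower. The comparison shares the Jmjd1a-KO arrays with that against WT. In the 14 genes with the widest rises, 11 were also above Jmjd1b-KO past the threshold, and in the 14 with the widest falls, 10 were below it. Grb10 differed by 0.26 between the single knockouts (adjusted p = 0.66, limma), with Jmjd1b-KO low too, and Rnf128 and Cldn7 by -0.50 and 0.34 (adjusted p = 0.50 and 0.55). Acta2 was 2.02 higher in Jmjd1a-KO than in Jmjd1b-KO, although lower than in WT. Rian and Meg3, by contrast, differed by -5.74 and -4.28 in Jmjd1a-KO minus Jmjd1b-KO.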

How the data were processed

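RNA from 2 biological replicates of each of 4 genotypes was hybridised to 1-colour Affymetrix arrays from 200 ng of total RNA, per the labels. The authors deposited 1 table of log2 values, a unit read from the values themselves. R 2.7.2 is named in the submitters' processing notes. How background was corrected and how arrays were normalized and probes summarized is not stated there or in the labels. The values were used as deposited, with 0 other value columns set aside.

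Symbols came from the platform annotation: 34958 probe sets had 1 symbol, 932 several and 9211 none. Probe sets spanning at least 0.01 over the 8 arrays were kept, and the one with the highest mean stood for its gene. Chromosomes came from RefSeq gene records (GRCm38.p6), which named one for 7168 of the 7181 genes. A limma 3.58.1 model (R 4.3.3) with 4 group means was fitted to all 8 arrays (4 residual and 1.91 prior degrees of freedom), with Benjamini-Hochberg adjustment over all 7181 genes and a threshold of 0.05. Errors are the standard errors of that fit. The labels call the replicates biological without saying whether they came from separate lines, so p-values measure the spread between these samples. The fit was tested on simulated data.

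Named genes were Kdm3a and Kdm3b, the 14 rises and 14 falls with the widest gap between groups among brighter genes (mean of the higher group at or above 8.94), up to 6 called members of each of 32 gene lists with the largest change (or the brightest measured members where none was called), and the 6 genes that differed most between the Jmjd1a-KO arrays. Genes outside this rule (Pou5f1, Nanog, Dppa5a, flat genes, Mael, Sycp3, Myh9 and B2m) were named after their values were seen. The members and lists were chosen with earlier results of these data known. Of 796 list entries 506 were tested. Called counts and medians describe a list and test nothing about it. Alternatives were other gene filters, normalizations, moderation, array weights, thresholds, a replicate block and leaving out arrays. Promoter windows were RefSeq's, searched with Python 3.11.15, and figures were drawn with matplotlib 3.10.9.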

Additional observations from a re-analysis of the deposited data

Results flagged for a closer look

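For 60 of the 126 named genes the difference between cells without and with Jmjd1a was not the same where Jmjd1b was present and absent. The measure was the interaction term of the limma fit at an adjusted p of 0.05. The value given for each is the log2 change in double-KO against Jmjd1b-KO minus that in Jmjd1a-KO against WT. It was more positive for 32 genes and more negative for 28. Most named genes were chosen for their change in Jmjd1a-KO, which enters this difference, so the share says nothing about genes at large.

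Contractile and matrix genes that had fallen with Jmjd1a loss alone had positive differences: Acta2 (6.49), Tagln (4.76), Col3a1 (3.79), Tgfbi (3.54), Actc1 (3.11), Cald1 (2.93), Col1a2 (2.49), Col5a2 (1.87), Myl9 (1.44), Postn (0.88) and Col1a1 (0.74). All of them already read lower in Jmjd1b-KO than in WT, with Col3a1 at 5.49 and 5.14 and Tgfbi at 6.17 and 6.03 in Jmjd1b-KO. A positive difference is thus not in itself a rise. Col1a1 and Myl9 read lower in double-KO than in Jmjd1b-KO. Cnn1 of the contractile list differed the other way (-0.62). The difference was also positive for the interferon genes Gbp2 (5.73), Irgm1 (3.69), Gbp3 (2.87), Oasl2 (2.28) and Psmb8 (2.10). The mean of the measured feeder fibroblast markers was 7.66 and 7.53 in Jmjd1b-KO and 8.04 and 7.99 in double-KO, and their part in the first group was not tested.

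Among imprinted genes the difference was positive for Cdkn1c (2.53) and Igf2 (1.63) and negative for Phlda2 (-2.94), Kcnq1ot1 (-1.82), Peg3 (-1.06) and Impact (-0.75). Cdkn1c already stood at 7.87 and 7.89 in Jmjd1b-KO, against 10.61 and 10.78 in WT. For germline, X-linked and early embryo genes it was positive for Usp17la (3.59) and Tex19.1 (2.09) and negative for Rhox5 (-4.33), Hormad1 (-1.18) and Tdrd12 (-0.77). For the DNA methylation genes Dnmt3l (-2.41) and Dnmt3a (-2.17) the difference was negative, and Dnmt3l stood higher in Jmjd1b-KO (13.12 and 13.16) than in WT (11.11 and 11.42). Trim28 differed by 0.35 and Tfcp2l1 by 0.88. All 6 named stress response genes were more negative: Psph (-1.81), Slc7a1 (-1.64), Pck2 (-1.47), Psat1 (-1.26), Trib3 (-0.93) and Atf3 (-0.54). So were the lipid synthesis genes Elovl6 (-1.68), Scd1 (-1.17) and Dhcr7 (-0.98), and Hmox1 (-2.17).

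In the remaining genes the difference was positive for Kitl (1.79), Dsp (1.66), Ccnd2 (1.59), Diaph2 (1.18), Lama1 (1.16), Fam111a (1.02), Lef1 (0.97), Tgfb2 (0.89), Cdkn2a (0.87) and Epas1 (0.73). Ccnd2 was already low in Jmjd1b-KO, at 6.89 and 6.95 against 9.15 and 9.25 in WT. For the others the difference went the opposite way. These were Plac8 (-2.99), Cldn4 (-2.21), Ccnd1 (-2.12), Fabp3 (-1.64), Ak7 (-1.38), Amn (-1.37), Ccng1 (-0.73) and Nefl (-0.60).

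Among informative probe sets that carry no gene symbol or several, which the gene results do not use, 166 passed the threshold in Jmjd1a-KO against WT. Those with no symbol gave 63 rises and 47 falls in 733 (15.0%), and those with several gave 23 rises and 33 falls in 364 (15.4%).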

How the results depend on the processing

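Counts of genes past the threshold moved with several choices. For Jmjd1a-KO against WT the count of 1301 became 374 with flat genes included, 2050 with every informative probe set as a feature, 651 with the dimmer genes left out, 321 with only the 4 arrays compared, 866 with array weights, 206 with a log2 change of at least 1 required and 236 at an adjusted p of 0.01. Leaving out 1 array gave 139 to 2335. Such a fit leaves a lone array in 1 group, which is then assumed to vary like the other groups. For double-KO against Jmjd1b-KO, 3721 became 5762 by probe set, 1712 without dimmer genes, 869 with the size minimum and 2242 at 0.01, and 2196 to 4224 without 1 array. For the interaction, 1894 became 696 with flat genes, 2868 by probe set, 829 without dimmer genes, 655 with the size minimum and 538 at 0.01, and 629 to 2562 without 1 array. For Jmjd1a-KO against Jmjd1b-KO, 1978 became 851 with flat genes, 3196 by probe set, 836 without dimmer genes, 417 with the size minimum and 788 at 0.01, and 599 to 2240 without 1 array. With the size minimum and the adjusted p of 0.01 aside, 25 of the 117 named genes past the threshold stayed past it throughout. This covers every other setting that gave them a value and the fits without each array. The call was lost by 90 without the second WT array, by 80 without the first, by 87 with flat genes included and by 59 with only the 4 arrays compared. The one sign that turned was that of Inhbb, whose brighter probe set is flat (2.5e-09 with flat genes included). The list median of hypoxia genes turned to -0.02 without the first Jmjd1a-KO array and that of fibroblast genes to 0.00081 with the dimmer genes left out, which leaves 3 genes. That of germline genes was -2.11 in the same setting, which leaves 2, and -8e-09 with flat genes included.

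Replicates share numbers across groups. Over the tested genes, deviations of same-numbered arrays correlated at -0.121 (Jmjd1a-KO with double-KO) to 0.218 (WT with Jmjd1a-KO). The Y-linked split, however, followed the replicate number in both Jmjd1a-KO and double-KO. Whether the numbers pair the arrays is therefore not settled. With the replicate number as a block, 1043 genes passed for Jmjd1a-KO against WT, 3506 for double-KO against Jmjd1b-KO, 1610 for the interaction and 1787 for Jmjd1a-KO against Jmjd1b-KO, and 17 of the 117 named calls were lost. Leaving out chromosomes 1 and 19, a choice made after seeing the data, left 1098. With 2 arrays a group, the number of arrays limits the precision, and signal over background was not examined.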
